A study of Homo sapiens with 4 samples.

Results

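The autophagy machinery genes and the MiT/TFE transcription factor genes were followed by RNA-seq in the human monocytic leukaemia line THP-1 after knockdown of PIWIL4, a PIWI-family Argonaute protein. The 39 genes were chosen by name, with earlier results of these data known. Of them, 36 encode core autophagy proteins, the ATG8 family and cargo receptors, and 3 encode the factors TFEB, TFE3 and MITF. All 39 were matched among the 25680 gene names of the count tables, and all 39 passed the filter on low counts. The study compared cells carrying the lentiviral control hairpin PGP-Scrambled (n = 2 libraries) with cells carrying PGP-shPIWIL4, a short hairpin RNA (shRNA) directed at PIWIL4 (n = 2 libraries), and its title concerns R-loops, genomic integrity and leukaemic growth. Cells of both groups were transduced, sorted by flow cytometry 48 hours later and profiled from total RNA. The groups follow the sample titles, since the treatment label of the shPIWIL4 libraries also contains the word scrambled. One hairpin sequence was used against PIWIL4 as far as the labels say, no rescue is described, and any difference in handling between the 2 transductions cannot be told apart from the hairpin. The labels do not say whether the replicates were separate cultures, so the p-values measure the spread between these libraries, which may be technical.

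Macroautophagy encloses cytoplasm in a double membrane, the autophagosome, and delivers it to the lysosome. The ULK1 kinase complex starts the process, a phosphatidylinositol 3-kinase complex marks the membrane, and ATG9A, the ATG2 proteins and the WIPI proteins supply lipid and recruit the later factors. A ubiquitin-like conjugation system then attaches the small ATG8 proteins (LC3 and GABARAP) to phosphatidylethanolamine, and cargo receptors bind both the cargo and ATG8. TFEB, TFE3 and MITF are related basic helix-loop-helix factors that bind the E-box CACGTG and regulate lysosomal and autophagy genes. RNA levels say nothing directly about the number of autophagosomes or the rate of degradation, which were not measured.

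PIWIL4 itself stood at 38.5 and 37.2 CPM, the read count scaled to library size, in Scrambled libraries 1 and 2 and at 17.8 and 17.4 CPM in shPIWIL4 libraries 1 and 2. It was 2.15-fold lower (log2 fold change -1.10, SE 0.09), with an adjusted p of 1.3e-05. This and every other adjusted p given for a gene came from the quasi-likelihood F test of edgeR with p-values adjusted by Benjamini-Hochberg over all genes tested, unless another tool is named. Total counts per library ranged from 31458079 to 53657246. At an adjusted p under 0.05, 57.7% of the 16108 genes tested were called, 4618 of them higher in shPIWIL4 and 4683 lower. Monocytic markers were detected, with CD33 at 68.2 to 75.6 CPM in the 4 libraries, and the sum of 10 such markers was 1140 and 1147 CPM in Scrambled and 2715 and 2678 CPM in shPIWIL4. Of the 10, LYZ (lysozyme, 143 and 151 CPM in Scrambled, 1803 and 1817 CPM in shPIWIL4) and FCGR1A were called higher. The rise of LYZ alone was larger than that of the sum. CSF1R, MPO and CD4 were called lower, with log2 fold changes of -0.49, -0.89 and -0.74, and 5 were not called. Of 12 markers of other blood, stromal and endothelial cells, 8 had at most 5 counts in every library, CD3E and COL1A2 among them at 0, and the sum of the 12 was 8.59 and 8.73 CPM in Scrambled and 2.27 and 2.66 CPM in shPIWIL4. The part of these marker shifts in the results was not tested. In bulk RNA, fewer cells of a state and less RNA per cell cannot be told apart.

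Of the 39 genes, 14 were called higher and 5 lower in shPIWIL4, and 20 were not called at an adjusted p under 0.05. The called share of 48.7% was below the 57.7% of all tested genes. Among all tested genes 28.7% were called higher and 29.1% lower. With upper-quartile scaling the split of the 39 was 9 higher and 8 lower. MITF and ATG3 were called at a change of at least 2-fold, 2 of 39, where 16.1% of all tested genes passed the same rule. The 2 groups did not overlap for 29 of the 39 genes, and for 78.6% of all tested genes. The median log2 fold change of the 39 was 0.11, against -0.0034 for all tested genes, and their median absolute log2 fold change was 0.26, against 0.41. With a stricter filter that kept genes of at least 10 CPM on average, which left 37 of the 39, the median was 0.00996, beside 0.00944 for all genes, and 9 were called higher and 7 lower.

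**Figure D1:**
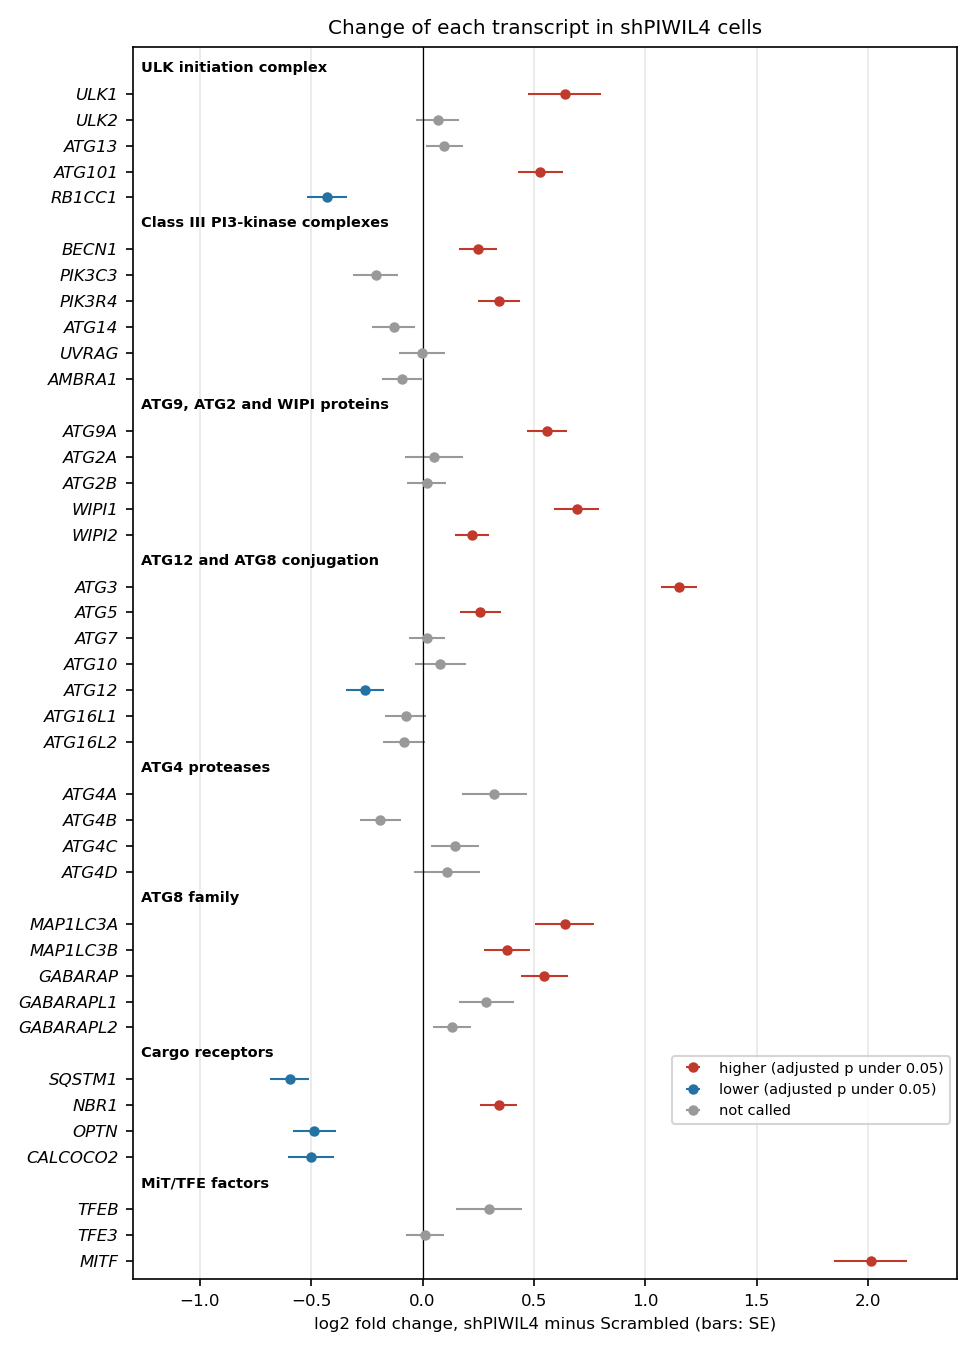
Log2 fold change of each of the 39 genes, shPIWIL4 against Scrambled, grouped by role, with bars of 1 standard error and colours for the call at an adjusted p under 0.05 (n = 2 libraries a group). MITF at 2.01 and ATG3 at 1.15 stand to the right of all other members, and SQSTM1 at -0.60 is the farthest to the left.

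The initiation complex changed unevenly among its subunits. ULK1, the kinase that starts autophagy, stood at 60.3 and 69.3 CPM in Scrambled and at 121 and 80.3 CPM in shPIWIL4. Both shPIWIL4 libraries were above both Scrambled libraries, but they differed from each other by more than the Scrambled pair did. The log2 fold change was 0.64 (SE 0.17, adjusted p = 0.0087), and it was 0.32 without shPIWIL4 replicate 1. The ULK1 call was lost with no filter (adjusted p = 0.10), with the stricter filter (adjusted p = 0.054) and in DESeq2 (adjusted p = 0.075).

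ATG101, which stabilises ATG13 in the complex, rose from 14.8 and 15.9 CPM to 22.8 and 21.5 CPM. Its 2 groups lay well apart, at 1.44-fold (log2 fold change 0.53, SE 0.10, adjusted p = 0.0016). RB1CC1, also called FIP200, the scaffold of the complex, went the other way. It fell from 51.0 and 55.3 CPM to 38.5 and 40.5 CPM, by 0.43 on the log2 scale (SE 0.09, adjusted p = 0.0026). ULK2, a relative of ULK1, was at 16.8 ± 0.16 CPM in Scrambled and 17.6 ± 0.33 CPM in shPIWIL4 (SD, n = 2 each), and ATG13, the regulatory subunit, at 139 ± 3.57 and 148 ± 7.53 CPM. Neither of these was called, with adjusted p-values of 0.58 and 0.33.

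In the phosphatidylinositol 3-kinase group the called changes were small. BECN1, or Beclin 1, the regulatory subunit around which the complex assembles, was at 89.1 and 85.4 CPM in Scrambled and 98.8 and 108 CPM in shPIWIL4. PIK3R4, or VPS15, the pseudokinase that carries the catalytic subunit, was at 45.0 and 41.8 CPM and then at 51.7 and 58.2 CPM. For both genes every shPIWIL4 library was above every Scrambled library. The log2 fold changes were 0.25 (SE 0.08, adjusted p = 0.030) for BECN1 and 0.34 (SE 0.09, adjusted p = 0.012) for PIK3R4. The call of BECN1 was lost in 6 of 13 alternative settings, with adjusted p-values of 0.056 to 0.22, and that of PIK3R4 in 2, with upper-quartile scaling (0.069) and without Scrambled replicate 2 (0.11).

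The catalytic subunit PIK3C3, or VPS34, was at 51.6 and 47.0 CPM in Scrambled and 39.4 and 45.7 CPM in shPIWIL4, and was not called (log2 fold change -0.21, SE 0.10, adjusted p = 0.10). It was called lower in 6 of the 13 alternative settings, among them the one without shPIWIL4 replicate 2, at -0.31 on the log2 scale. ATG14, which directs the complex to the forming autophagosome, had means of 22.4 ± 1.08 and 20.5 ± 0.42 CPM. UVRAG, the subunit that takes its place in the endosomal form, had means of 38.7 ± 2.72 and 38.6 ± 3.65 CPM with overlapping groups. AMBRA1, an activator of the complex, had means of 33.9 ± 0.17 and 31.8 ± 0.75 CPM (SD, n = 2 each). None of these 3 was called, with adjusted p-values of 0.28, 0.98 and 0.40, and ATG14 was called lower with upper-quartile scaling (log2 fold change -0.25) and with a transcript GC offset (-0.24).

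Among the lipid supply and membrane recruitment genes, the scramblase gene ATG9A and both WIPI genes were called higher. These were 3 of the 5 genes of the group, and 28.7% of all tested genes were called higher. ATG9A, the one transmembrane protein of the core machinery, was at 92.6 and 98.9 CPM in Scrambled and 149 and 133 CPM in shPIWIL4. WIPI1, which binds phosphatidylinositol 3-phosphate, was at 16.7 and 16.02 CPM and then 25.2 and 27.7 CPM. These were increases of 1.47-fold (log2 fold change 0.56, SE 0.09, adjusted p = 0.00062) and 1.62-fold (log2 fold change 0.69, SE 0.10, adjusted p = 0.00034), with no overlap of the groups.

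WIPI2, which recruits ATG16L1 to the membrane, was at 125 and 124 CPM in Scrambled and 146 CPM in each shPIWIL4 library. This was a log2 fold change of 0.22 (SE 0.08, adjusted p = 0.033), called in the main fit but not in 7 of the 13 alternatives, where the adjusted p was 0.051 to 0.27. The lipid transfer genes ATG2A and ATG2B were not called, with overlapping groups. ATG2A was at 24.0 and 24.9 CPM in Scrambled and at 28.8 and 21.9 CPM in shPIWIL4, so its 2 shPIWIL4 libraries lay on either side of the Scrambled pair (log2 fold change 0.05, adjusted p = 0.76). Without shPIWIL4 replicate 2 it was called higher, at 0.24. ATG2B had means of 42.1 ± 0.60 and 42.7 ± 2.16 CPM (SD, n = 2 each, adjusted p = 0.87).

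**Figure D2:**
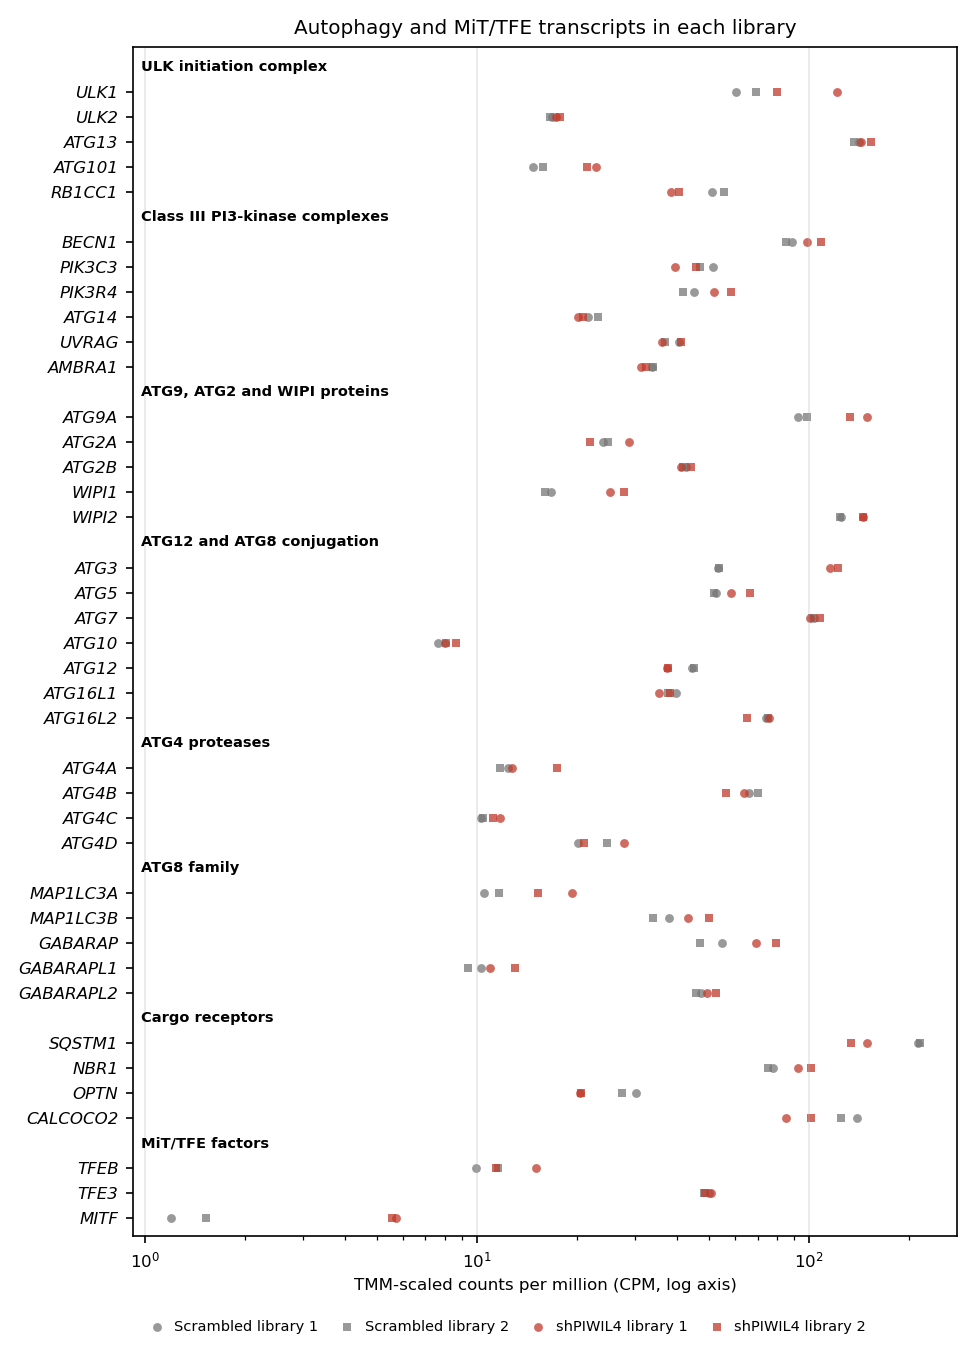
Level of each of the 39 genes in every library, in CPM on a log axis, ordered by role, with 1 point per library and a colour per group. MITF lies lowest, at 1.20 and 1.53 CPM in Scrambled and 5.70 and 5.56 CPM in shPIWIL4, and the ATG3 points of the 2 groups are widely separated.

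ATG3 had the clearest change of the conjugation system. It encodes the E2-like enzyme that transfers ATG8 proteins to lipid. Its level was 53.3 and 53.7 CPM in Scrambled and 116 and 122 CPM in shPIWIL4, and the spread within each pair was small beside the gap. The increase was 2.22-fold (log2 fold change 1.15, SE 0.08, adjusted p = 5e-06), and the log2 fold change stayed between 1.03 and 1.20 in the 13 alternative settings. Per kilobase of the gene model, its mean went from 17.5 ± 0.08 to 38.9 ± 1.47 RPKM (CPM per kilobase, SD, n = 2 each).

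The other enzymes and partners of the 2 conjugation reactions did not share this size of change. ATG7, the E1-like enzyme that feeds ATG3, was at 104 and 102 CPM in Scrambled and 101 and 108 CPM in shPIWIL4, with overlapping groups (log2 fold change 0.02, SE 0.08, adjusted p = 0.85). ATG10, the E2-like enzyme of the ATG12 reaction, had means of 7.87 ± 0.31 and 8.34 ± 0.43 CPM (SD, n = 2 each, adjusted p = 0.58). ATG5, which ATG10 joins to ATG12, was at 52.7 and 51.6 CPM in Scrambled and 58.3 and 66.6 CPM in shPIWIL4. Its log2 fold change of 0.26 (SE 0.09, adjusted p = 0.035) was called in 4 of the 13 alternatives and missed the threshold in 9, at adjusted p-values of 0.052 to 0.21.

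ATG12, the ubiquitin-like partner of ATG5, was lower in both shPIWIL4 libraries. It was at 44.4 and 45.2 CPM in Scrambled and 37.3 and 37.6 CPM in shPIWIL4, a fall of 0.26 on the log2 scale (SE 0.08, adjusted p = 0.025). The call was lost without Scrambled replicate 1 (adjusted p = 0.19), without Scrambled replicate 2 (0.21) and with the replicate block (0.13). The 2 paralogs that complete the conjugate were not called. ATG16L1 had means of 38.7 ± 1.66 and 36.7 ± 1.99 CPM and ATG16L2 of 74.7 ± 0.58 and 70.5 ± 7.56 CPM (SD, n = 2 each), both with overlapping groups and adjusted p-values of 0.50 and 0.47.

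None of the 4 ATG4 genes, which encode the proteases that process ATG8 proteins and free them from lipid, was called. Over all tested genes 57.7% were called. ATG4A was at 12.4 and 11.7 CPM in Scrambled and 12.8 and 17.4 CPM in shPIWIL4 (log2 fold change 0.32, SE 0.15, adjusted p = 0.086). It was at 0.54 and called without shPIWIL4 replicate 1, and at 0.09 without shPIWIL4 replicate 2. ATG4B, the form with the highest level per length of the 4, was at 66.2 and 70.4 CPM in Scrambled and 63.7 and 56.1 CPM in shPIWIL4 (log2 fold change -0.19, SE 0.09, adjusted p = 0.10). It was called lower in 4 of the 13 alternatives. ATG4C had means of 10.4 ± 0.14 and 11.5 ± 0.40 CPM, and ATG4D of 22.4 ± 3.22 and 24.3 ± 4.73 CPM (SD, n = 2 each), with adjusted p-values of 0.27 and 0.55. ATG4D overlapped between groups, and without shPIWIL4 replicate 2 it was called higher, at 0.30 on the log2 scale.

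The 5 ATG8 genes were higher in both shPIWIL4 libraries than in both Scrambled libraries, and 3 of the 5 were called. Over all tested genes, 78.6% did not overlap between the groups and 57.7% were called. GABARAP was at 54.7 and 47.1 CPM in Scrambled and 69.1 and 79.5 CPM in shPIWIL4, 1.46-fold higher (log2 fold change 0.55, SE 0.10, adjusted p = 0.0017). MAP1LC3A was at 10.5 and 11.7 CPM and then 19.4 and 15.3 CPM, 1.56-fold higher (log2 fold change 0.64, SE 0.13, adjusted p = 0.0029). MAP1LC3B, the LC3 form most used as an autophagosome marker, was at 37.9 and 33.9 CPM and then 43.3 and 50.01 CPM (log2 fold change 0.38, SE 0.10, adjusted p = 0.011). Its call was lost with upper-quartile scaling (adjusted p = 0.058) and without Scrambled replicate 2 (0.11). MAP1LC3B has a near-identical copy, MAP1LC3B2, and GABARAPL1 has GABARAPL3, so reads may be shared within these pairs.

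GABARAPL1 was at 10.3 and 9.38 CPM in Scrambled and 10.9 and 13.0 CPM in shPIWIL4, and was not called (log2 fold change 0.29, SE 0.12, adjusted p = 0.074). It was called in 4 alternatives, one of them without shPIWIL4 replicate 1, at 0.42. GABARAPL2, also known as GATE-16, was at 47.4 and 45.7 CPM and then 49.4 and 52.6 CPM (log2 fold change 0.13, SE 0.09, adjusted p = 0.22), and with upper-quartile scaling its log2 fold change was 0.0092. Per length, the 5 genes summed to 139.9 and 128.5 RPKM in Scrambled and 168.4 and 183.7 RPKM in shPIWIL4, so both shPIWIL4 totals were the higher ones.

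The mix within the family also differed between the libraries. GABARAP made up 43.8 and 41.1% of the summed RPKM in Scrambled and 46.0 and 48.4% in shPIWIL4. GABARAPL2 made up 33.8 and 35.5% and then 29.3 and 28.6%. As means these were 42.4 ± 1.94 and 47.2 ± 1.76% for GABARAP and 34.7 ± 1.21 and 28.9 ± 0.47% for GABARAPL2 (SD, n = 2 each), with no overlap for either gene. MAP1LC3B stayed between 11.3 and 11.9% in the 4 libraries. With 2 libraries against 2 these shares were not tested.

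**Figure D3:**
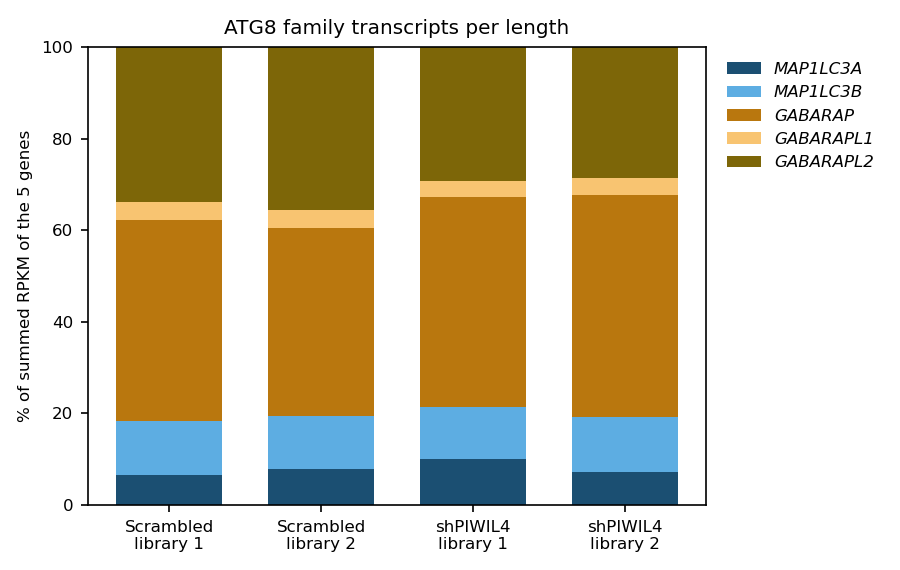
Share of each ATG8 family gene in the summed RPKM of the 5 genes, in percent, for each of the 4 libraries. The GABARAP share is larger and the GABARAPL2 share smaller in both shPIWIL4 libraries than in both Scrambled libraries, while MAP1LC3B lies between 11.3 and 11.9% throughout.

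Cargo receptors were the group with most falls, 3 called lower and 1 higher of 4, where 29.1% of all tested genes were called lower and 28.7% higher. SQSTM1, or p62, which collects ubiquitinated cargo and is itself degraded by autophagy as a protein, was at 213 and 215 CPM in Scrambled and 149 and 134 CPM in shPIWIL4. Both shPIWIL4 libraries lay far below the Scrambled pair, 1.51-fold lower on average (log2 fold change -0.60, SE 0.09, adjusted p = 0.00033). CALCOCO2, or NDP52, a receptor for bacteria and mitochondria, was at 139 and 125 CPM and then 85.2 and 101 CPM, 1.42-fold lower (log2 fold change -0.50, SE 0.10, adjusted p = 0.0025). OPTN, or optineurin, which takes part in the same processes, was at 30.2 and 27.4 CPM and then 20.4 and 20.6 CPM, 1.40-fold lower (log2 fold change -0.49, SE 0.10, adjusted p = 0.0022). All 3 calls held in all 13 alternative settings.

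NBR1, a receptor with a domain layout like that of SQSTM1, moved in the opposite direction to it. It was at 77.9 and 75.3 CPM in Scrambled and 92.5 and 102 CPM in shPIWIL4 (log2 fold change 0.34, SE 0.08, adjusted p = 0.0068). The NBR1 call was lost without Scrambled replicate 2 (adjusted p = 0.064) and held in the other settings.

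Per length, the order at the top of the 39 genes differed between the groups. In Scrambled, SQSTM1 was first at 64.1 ± 0.53 RPKM, then GABARAP at 57.0 ± 6.02, GABARAPL2 at 46.5 ± 1.18 and BECN1 at 40.7 ± 1.22 RPKM (SD, n = 2 each). ATG16L2 at 34.8 ± 0.27 and CALCOCO2 at 34.7 ± 2.63 RPKM followed and overlapped each other. In shPIWIL4, GABARAP was first at 83.2 ± 8.20 RPKM, and GABARAPL2 at 50.9 ± 2.31 and BECN1 at 48.3 ± 3.15 RPKM overlapped each other. SQSTM1 was then at 42.4 ± 3.30 and ATG3 at 38.9 ± 1.47 RPKM. ULK2, at 1.83 and 1.92 RPKM in the group means, and MITF were the lowest in both groups.

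Of the transcription factors MITF changed most, from a low level. MITF, best known for its role in melanocytes and also active in the myeloid and osteoclast lineage, had 38 and 81 counts in Scrambled and 289 and 289 counts in shPIWIL4. This was 1.20 and 1.53 CPM against 5.70 and 5.56 CPM, 4.04-fold higher (log2 fold change 2.01, SE 0.16, adjusted p = 1.1e-05). The 2 groups were far apart, and the log2 fold change was 1.89 to 2.24 in the 12 alternatives that tested the gene. Per length MITF remained the lowest of the 39 in both groups, at 0.224 ± 0.04 and 0.924 ± 0.02 RPKM (SD, n = 2 each).

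TFEB was at 9.92 and 11.6 CPM in Scrambled and 15.1 and 11.4 CPM in shPIWIL4, with overlapping groups (log2 fold change 0.30, SE 0.15, adjusted p = 0.11). The log2 fold change of TFEB was 0.49 without shPIWIL4 replicate 2 and 0.09 without shPIWIL4 replicate 1, so it depended on which library was left out. TFEB was called higher in 3 of the 13 alternatives, among them the transcript GC offset and the crossed replicate block. TFE3 was at 50.1 and 48.3 CPM in Scrambled and 50.6 and 48.5 CPM in shPIWIL4, overlapping as well (log2 fold change 0.01, SE 0.08, adjusted p = 0.92). Per length TFE3 was the most abundant of the 3 in both groups, at 14.3 ± 0.36 and 14.4 ± 0.43 RPKM, above TFEB at 3.93 ± 0.43 and 4.85 ± 0.95 RPKM (SD, n = 2 each). TFEC, the family's myeloid member, which is not among the 39, rose 3.82-fold from 18.2 and 21.3 CPM to 80.1 and 71.4 CPM (adjusted p = 1.6e-06).

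The promoters were searched for CACGTG, an E-box that these factors bind, in RefSeq windows of GRCh38.p14 from 250 bases before to 50 bases after each start. CACGTG is its own reverse complement, so 1 search covered both strands. Of the 39 genes 35 had a window, and RB1CC1, UVRAG, ATG4D and MAP1LC3A did not. The motif was found in 2 of the 35, ATG3 and ATG14 (5.71%), against 8.77% of all 27305 genes with a window, 12.2% of the 11150 tested genes with a window and 7.26% of all 35116 windows. Both promoters are printed up to the start because they are the member promoters that hold the motif, written 5′ to 3′ on the gene's strand with each whole CACGTG in capitals:
ATG3, chr3:112561963-112562112, minus strand: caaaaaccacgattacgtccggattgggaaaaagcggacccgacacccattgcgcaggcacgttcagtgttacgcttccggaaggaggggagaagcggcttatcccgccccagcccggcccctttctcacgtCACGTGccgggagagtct
ATG14, chr14:55411831-55411930, minus strand: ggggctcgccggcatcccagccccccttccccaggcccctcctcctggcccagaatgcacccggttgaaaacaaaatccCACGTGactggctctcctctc

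The ATG3 motif begins 18 bases before the start, and a second ATG3 match begins at base 6 after it. The ATG14 motif begins 21 bases before the start. The 2 genes differed in the comparison, since ATG3 rose 2.22-fold and ATG14 was not called at a log2 fold change of -0.13. The windows of MITF and TFEB held no match, which says only that these letters are not in those windows.

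For comparison, a list of 26 lysosomal genes known as CLEAR targets was searched and tested in the same way. That list was put together from genes known for the motif, so its share is no independent result. It was also chosen with earlier results of these data known, so its calls and median change are no independent result either. Of 14 with a window, 11 held CACGTG (78.6%). Of 25 tested, 20 were called higher and 0 lower, and 0 were called lower in any of the 13 alternatives. Over all tested genes 28.7% were called higher and 29.1% lower. The median log2 fold change of the list was 1.14, where the 39 genes had 0.11 and all tested genes -0.0034. LAMP1, an abundant lysosomal membrane protein, rose from 162 and 171 CPM to 648 and 599 CPM, and CTSA, a lysosomal carboxypeptidase, from 133 and 127 to 477 and 462 CPM. CTSB, a cathepsin, rose 3.32-fold. These 3 called genes had adjusted p-values of 5.6e-07 to 6.7e-07. The motif was matched more than once for LAMP1, CTSA, MCOLN1, GALNS, CTSF and CLCN7. CTSB was not among the list genes with a match. GALNS rose 2.28-fold (adjusted p = 1.3e-05). CTSF and CLCN7 were not called, with log2 fold changes of 0.24 and 0.25 and adjusted p-values of 0.21 and 0.15. Windows of LAMP1, of CTSA and of MCOLN1, a lysosomal calcium channel that rose 2.21-fold (adjusted p = 0.00018), are printed up to the start in the same way, as examples of list members that hold the motif more than once:
LAMP1, chr13:113296989-113297238, plus strand: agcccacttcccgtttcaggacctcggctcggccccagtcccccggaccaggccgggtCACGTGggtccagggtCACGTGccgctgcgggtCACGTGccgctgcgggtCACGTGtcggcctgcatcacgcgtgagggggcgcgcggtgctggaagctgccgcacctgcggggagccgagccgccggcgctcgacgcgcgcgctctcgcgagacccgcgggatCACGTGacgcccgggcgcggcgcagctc
CTSA, chr20:45891235-45891334, plus strand: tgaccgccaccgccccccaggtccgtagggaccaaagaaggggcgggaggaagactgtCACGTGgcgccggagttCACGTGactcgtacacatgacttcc
MCOLN1, chr19:7522524-7522623, plus strand: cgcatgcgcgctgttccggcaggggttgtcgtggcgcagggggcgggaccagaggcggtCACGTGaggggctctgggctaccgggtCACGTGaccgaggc

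Other genes around the autophagosome were tested from lists of further members of the pathway. Among 19 tested of 21 other autophagosome genes, 7 were called higher and 4 lower. Their called share was 57.9%, beside 57.7% of all tested genes, and their median change was 0.12 on the log2 scale. TP53INP2, which links ATG8 to the membrane, rose 2.56-fold (adjusted p = 4.5e-06). SNAP29 and VAMP8, which encode SNARE proteins of autophagosome fusion, rose 1.62-fold and 1.55-fold (adjusted p = 0.00022 and 0.0011). ATG9B, a low-level relative of ATG9A, fell from 4.60 and 5.57 CPM to 2.11 and 1.54 CPM (log2 fold change -1.49, adjusted p = 0.00013), while ATG9A rose.

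Of 19 tested among 20 other selective autophagy genes, 8 were called higher and 4 lower. Their called share was 63.2%, beside 57.7% of all tested genes, and their median change was 0.17 on the log2 scale. BNIP3, a mitophagy receptor, fell from 238 and 235 CPM to 56.7 and 62.9 CPM, 3.95-fold (adjusted p = 4.5e-07), and its relative BNIP3L fell 1.99-fold (adjusted p = 2e-05). PINK1, the kinase that marks damaged mitochondria, rose from 28.4 ± 0.86 to 66.4 ± 2.26 CPM (SD, n = 2 each, adjusted p = 5.4e-06). TAX1BP1, a receptor related to CALCOCO2, rose from 195 and 181 to 319 and 361 CPM (adjusted p = 6.5e-05), where CALCOCO2 fell.

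Among mTORC1, Rag GTPase and AMPK genes, which signal nutrient state to ULK1 and the MiT/TFE factors, 13 of 34 tested were called higher and 3 lower. Their called share was 47.1%, beside 57.7% of all tested genes, and their median change was 0.16 on the log2 scale. SESN3, a sestrin, rose 2.61-fold and LAMTOR2, a subunit of the lysosomal Ragulator, 2.24-fold. MTOR, the kinase itself, rose 1.91-fold, and RRAGD, a Rag GTPase gene, 1.66-fold, and these 4 had adjusted p-values of 3.7e-06 to 7e-05. Of 5 other regulators, ZKSCAN3, a repressor of autophagy genes, fell from 17.7 and 17.1 CPM to 8.88 and 8.51 CPM (adjusted p = 4.8e-05). FOXO1 had a log2 fold change of -0.40 (adjusted p = 0.030), a call lost in 6 settings at adjusted p-values of 0.051 to 0.27.

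**Figure D4:**
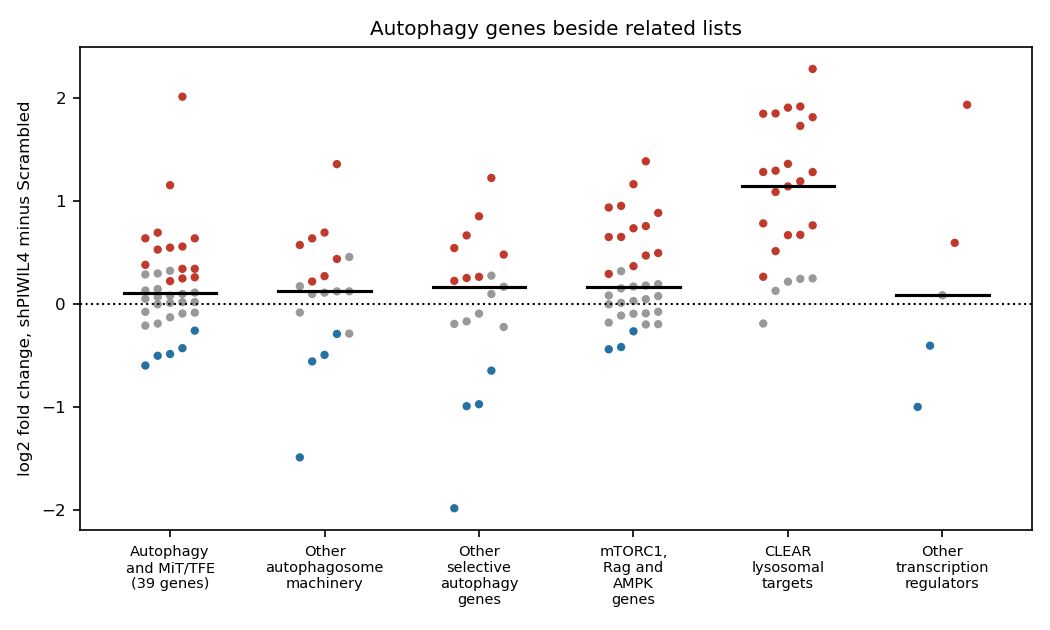
Log2 fold changes of single genes, shPIWIL4 against Scrambled, for the 39 genes and the other lists, with 1 point per tested gene and a bar at each list's median. The median is 0.11 for the 39 genes and 1.14 for the CLEAR lysosomal list, whose called genes are all higher. The lists were chosen with earlier results of these data known.

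The 2 shPIWIL4 libraries differed from each other in a way that followed base composition. Over the 39 genes, the difference in log2 CPM between shPIWIL4 libraries 1 and 2 had a Pearson r of 0.755 with the GC content of the transcripts, and that between Scrambled libraries 1 and 2 an r of -0.415. Over 14800 tested genes these values were 0.436 and -0.131. The points of each value share the same 2 libraries, and genes are not independent replicates. ULK1, with 64.5% GC, was 0.60 higher in shPIWIL4 library 1 than in library 2 on the log2 scale, and ATG4A, with 42.8% GC, was lower in library 1 by a log2 difference of -0.44. TFEB, ATG4D, ATG2A and MAP1LC3A, at 62.8 to 64.0% GC, were higher in library 1 by 0.34 to 0.40. The group difference itself had an r of 0.0465 with GC over the 39 genes and of -0.139 over the 14800 tested genes. With a GC offset per library, ULK1 was at a log2 fold change of 0.83, MAP1LC3A kept its call, and TFEB (0.47, adjusted p = 0.0017), ATG2A (0.23) and ATG4D (0.30) were called higher. The part of base composition in these values was not tested further.

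**Figure D5:**
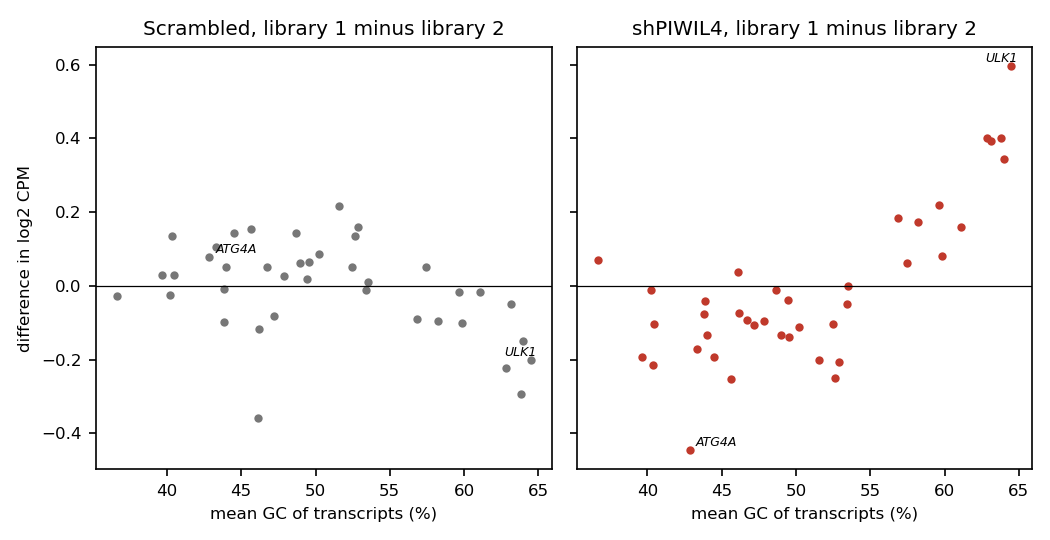
Difference in log2 CPM between libraries 1 and 2 of each group against the GC content of the transcripts in percent, with 1 point per gene for the 39 genes. In shPIWIL4 the points tend to rise with GC (Pearson r 0.755), and in Scrambled they do not rise. The extreme shPIWIL4 differences are ATG4A at -0.44 and ULK1 at 0.60. ATG4C, with the lowest GC at 36.65%, is at 0.07 in shPIWIL4.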

How the data were processed

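RNA-seq was analysed in 4 libraries, 2 per group. STAR, featureCounts, DESeq2 and the hg19 build are named in the submitters' processing notes. Tool versions, gene annotation and strandedness of the counting were not given in the sources used here. Without strandedness, a gene and its antisense partner can share reads. The deposited tables hold a raw read count per gene and an FPKM value that the authors derived from it. Counts were tested as deposited. The deposited FPKM served only for recovering gene lengths, needed for RPKM values computed here from TMM-scaled library sizes. Of the 25680 gene names, 28 had been turned into dates.

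Genes were kept by filterByExpr (minimum count 10, minimum total 15), which left 16108. The robust quasi-likelihood test of edgeR 4.0.16 in R 4.3.3 was run with TMM factors and group as the only term, and p-values were adjusted by Benjamini-Hochberg over all tested genes. TMM centres the changes of most genes on 0, so directions are relative to that centre. Each standard error is the log2 fold change over the square root of its F value. CPM values are TMM-scaled, and n = 2 libraries limits every SD. The threshold for a call was an adjusted p under 0.05. The 39 members and the other lists were chosen with earlier results of these data known. All members are named, with PIWIL4 and up to 4 called genes of each other list with the smallest p. Some genes that this rule names are not reported here. MCOLN1, GALNS, CTSF, CLCN7 and the markers are named as well.

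Replicate libraries differed by more than sampling noise, with a chi-square per gene of 7.89 for Scrambled over 15812 genes and 27.9 for shPIWIL4 over 15642 genes. The alternatives were other scaling factors, no filter and a stricter filter, DESeq2 1.42.0, a replicate block, each library left out, and, chosen after seeing the data, a loess offset for transcript GC and a crossed block.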

Additional observations from a re-analysis of the deposited data

How the results depend on the processing

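Of the 19 called members, 11 kept their call in every one of the 13 alternative settings that tested them: ATG101, RB1CC1, ATG9A, WIPI1, ATG3, MAP1LC3A, GABARAP, SQSTM1, OPTN, CALCOCO2 and MITF. Of the 20 not called, 12 stayed so. MITF and ATG10 were not tested with the stricter filter. No direction reversed for a called gene. With 2 libraries a group, a left-out library leaves a lone sample that is assumed to vary like the other group.

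Over all genes, upper-quartile scaling gave 3446 higher and 5717 lower calls in place of 4618 and 4683 and put the centre of all genes at -0.124 (median, log2). The members then had 9 higher and 8 lower calls and a median of -0.0092, the other selective autophagy genes 5 higher and the mTORC1 list 7 lower. The stricter filter gave 5730 calls, 2874 higher and 2856 lower, among fewer genes. The members then had 9 higher and a median of 0.00996, the other selective genes 5 higher and the mTORC1 list 5 lower. The member median was 0.0667 with library totals and 0.151 with no filter. The GC offset gave 5 lower calls in the mTORC1 list. The cause of these shifts was not tested.

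Without 1 library each, member calls ranged from 8 to 16 higher, with 8 without Scrambled replicate 2, and the median from 0.0906 without shPIWIL4 replicate 2 to 0.149 without Scrambled replicate 1. Other autophagosome genes ranged from 4 (without Scrambled replicate 2) to 10 higher. Other selective genes ranged from 5 (without either Scrambled replicate) to 9 higher and from 3 to 7 (without shPIWIL4 replicate 2) lower, and the mTORC1 list from 2 to 7 (without shPIWIL4 replicate 1) lower.

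The sample titles give the same experiment replicate numbers in both groups. Same-numbered libraries had a correlation of deviations of -0.312 over 16108 genes. With 2 libraries a group this value cannot show whether same-numbered libraries were paired, and the main fit did not pair them. With the replicate block, 8118 genes were called, 11 members higher and 4 lower, and 5 other selective genes higher. A crossed replicate block called 11369 genes, 17 members higher and 7 lower, 7 other selective genes lower and 6 of the mTORC1 list lower.

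Without division by length, the mean ATG8 shares in Scrambled and shPIWIL4 were 23.3 and 23.2% for MAP1LC3B, 32.9 and 36.9% for GABARAP, 6.37 and 5.93% for GABARAPL1 and 30.2 and 25.4% for GABARAPL2.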

Other observations

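Over all 11150 tested genes with a promoter window, the 1362 that held CACGTG had a median log2 fold change of 0.077, with 34.4% called higher and 24.4% lower. The 9788 without it had a median of 0.013, with 30.7% called higher and 28.8% lower. Among other lists, counted over genes with a window, the motif was in 7 of 30 mTORC1, Rag and AMPK genes (23.3%). It was in 2 of 16 other autophagosome genes (12.5%) and in 2 of 14 other selective autophagy genes (14.3%). These shares are descriptions and were not tested.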
